A study of Bos taurus with 60 samples.

Results

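The duodenal comparison covers 10 small RNA libraries of cattle (Bos taurus) out of 60 in the series. Of these, 5 came from super-shedders, cattle with large numbers of the bacterium Escherichia coli O157 in the feces, and 5 from non-shedders, in which it was not found. The libraries were chosen by their tissue and shedding labels, and the other 50 libraries, from 5 further gut regions of the same design, served for a test of whether the duodenum departs from them, a larger fit and values set beside the duodenal ones. In the sample titles super-shedders have the letters F to J and non-shedders A to E, and a letter recurs in every region. It was read here as standing for 1 animal, on which the p-values of the duodenum alone rest. The fits of all 60 libraries took libraries of 1 letter as independent, except where the letter was a replicate block. The sources used here do not give breed, age, sex or feed. The labels describe snap-frozen biopsies of intestinal tissue, so each library mixes mucosa, immune cells, vessels and whatever muscle the biopsy reached. The extraction text in the labels speaks of rectal tissue for every library, and the tissue label was followed here.

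A microRNA (miRNA) is a short RNA that guides Argonaute proteins to messenger RNAs, mostly through pairing of its seed, the bases near its 5′ end, and lowers the output of those messages. Many miRNAs belong to certain cell types, such as miR-192, miR-215 and the miR-200 family in gut epithelium, miR-375 in enteroendocrine cells, miR-143 and miR-145 in smooth muscle, and miR-122 in hepatocytes. The duodenum is the first stretch of the small intestine, which receives bile and pancreatic juice. Cattle carry E. coli O157 without disease and are a main reservoir of it, and the comparison asks which intestinal miRNAs accompany heavy shedding.

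The unit of the table is reads per mature miRNA. Total counts per library ran from 1107777 to 2271209 in super-shedders and from 951834 to 3433047 in non-shedders, and the difference of the means did not pass a two-sided exact permutation test (p = 0.643, n = 5 each). A library detected 364 to 410 miRNAs. Of 608 listed miRNAs, 239 passed a filter on low counts and were tested with the quasi-likelihood test of edgeR, with p-values adjusted by Benjamini-Hochberg and a threshold of 0.05. Levels below are CPM, that is read counts scaled to a common library size, after TMM scaling, which keeps the few miRNAs that dominate a library from setting the scale. In bulk tissue a lower level can come from fewer cells of a type or from less RNA per cell, and these cannot be told apart.

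The library of letter I, a super-shedder, stood apart from the other 9 and went against its tissue label in several markers. Its miR-375 level was 83.6 CPM, against 4703 to 15806 CPM in the other 9. The epithelial miR-215 was at 1067 CPM against 9017 to 58858 CPM, and miR-141 at 198 CPM against 3369 to 13394 CPM. The other members of the miR-200 family were low there as well, with miR-200c at 19.8 CPM against at least 576 CPM and miR-200a at 63.1 CPM against at least 935 CPM. miR-192 was within the range of the others, at 169554 CPM, and made up most of the 174729 CPM that the whole epithelium list summed to in that library. That sum therefore says little of the other members, and which cells its miR-192 came from was not tested. On a scale common to all 60 libraries, miR-375 was at 80.9 CPM and miR-215 at 1032 CPM in this library. In the other regions of letter I they ran from 51.0 to 9297 CPM and from 152 to 13527 CPM. The duodenum was thus not the lowest region of that letter for either.

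Other miRNAs were far higher in letter I than anywhere else in the duodenum. The hepatocyte miRNA miR-122 had 13102 reads there (9954 CPM), and 0 to 16 reads in each of the other 9 libraries. miR-30a-5p stood at 68544 CPM against at most 10275 CPM, miR-101 at 17974 CPM against at most 3351 CPM, and miR-193b at 1081 CPM against at most 188 CPM. The pancreatic miRNAs miR-216a, miR-216b and miR-217 had 0 reads in letter I, which allows up to 2.28 CPM. They had 0 reads in letter J as well and at most 12 reads in any library, so this does not set letter I apart. miR-196b, a HOX-cluster miRNA of the hindgut, was at most 4.64 CPM in all 10 libraries. On a scale common to all 60 libraries it reached 1121 CPM in the cecum of letter F, and ran from 0.652 to 894 CPM in the other regions of letter I. It was also as low as 0.564 CPM in a non-shedder library of the large intestine, so a low level alone does not tell the regions apart. Across the tested miRNAs letter I was the highest of the 10 libraries for 61 and the lowest for 76, while no other library was highest for more than 31 or lowest for more than 41. Fold changes of the leading miRNAs, and of several others that move without this library, are therefore given both ways, and the source of its departures was not tested.

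**Figure D1:**
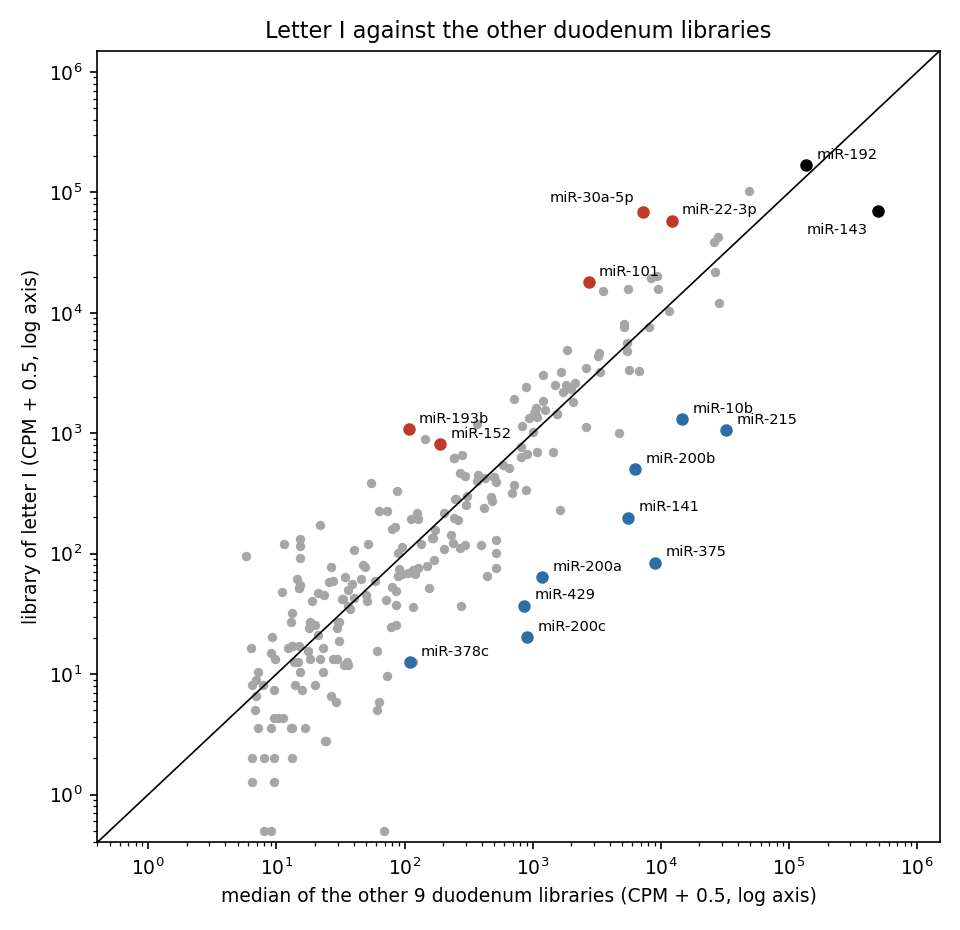
Levels of the 239 tested miRNAs in the duodenum library of letter I (y axis, CPM + 0.5, log axis) against the median of the other 9 duodenum libraries (x axis, CPM + 0.5, log axis), with 1 point per miRNA and the line of equal levels. miR-375, miR-215, the miR-200 family, miR-10b and miR-378c (blue) lie far below the line, miR-30a-5p, miR-101, miR-22-3p, miR-193b and miR-152 (red) lie above it, and miR-192 and miR-143 are marked in black.

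One miRNA, miR-378b, was lower in the duodenum of super-shedders, by 19.2-fold. It belongs to the miR-378 family, and the reference gene table gives it no host gene. Precursors of its relative miR-378 lie there within CALCR and within PPARGC1B, the gene of a coactivator of mitochondrial metabolism. Levels of miR-378b were 5.95, 5.33, 1.32, 0.760 and 2.32 CPM in super-shedders F, G, H, I and J, against 58.0, 67.6, 90.6, 89.6 and 4.67 CPM in non-shedders A, B, C, D and E. All super-shedders and the non-shedder E were low, so the groups overlapped through E alone. The reads behind these levels were 1 to 10 per library in super-shedders, against 95 to 149 in non-shedders A to D and 7 in E. The means were 3.14 ± 2.36 CPM in super-shedders and 62.1 ± 35.04 CPM in non-shedders (SD, n = 5 each).

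The log2 fold change of miR-378b was -4.27 ± 0.75 (SE, adjusted p = 0.0275), and it was the only call among the 239 tested miRNAs, or 0.418% of them. The call was lost without letter I (-4.04 ± 0.76, adjusted p = 0.0660) and without any other single letter but E, with adjusted p-values from 0.0581 to 0.149, while the fold change stayed between -4.56 and -4.04. Without E it was kept (-4.56 ± 0.51, adjusted p = 7.13e-04). DESeq2 (adjusted p = 4.14e-07) and the exact test of edgeR (1.15e-05) gave the same call, and limma-voom did not (-3.98 ± 0.89, adjusted p = 0.214).

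The 3 relatives of miR-378b did not pass. The abundant miR-378 averaged 3492 ± 1553 CPM in super-shedders and 5163 ± 949 CPM in non-shedders, with a log2 fold change of -0.56 ± 0.36 (adjusted p = 0.838), and letter I held the lowest level, 1004 CPM. Without letter I its fold change was -0.30 ± 0.21. miR-378c was at -0.61 ± 0.45 and miR-378d at -0.17 ± 0.58, and without letter I they were at -0.30 ± 0.22 and 0.15 ± 0.30. The sources used here do not say how reads were divided among these near-identical miRNAs. Summed over the family, reads of miR-378 outnumber those of miR-378b by far, and with reads summed over miRNAs that share a number in their name, edgeR called 0 of 170 such families, 4 of which had an unadjusted p under 0.05.

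Both miR-2284d and miR-2284j, members of a large ruminant miRNA family, showed a like split between letters, though the low-count filter removed both. They were picked after their values had been seen, out of 369 miRNAs that the filter removed. How many of those show the same split was not counted, so the pair gives no support to the result for miR-378b. miR-2284d had 0, 2, 1, 2 and 0 reads in super-shedders F to J, against 7, 19, 9, 5 and 1 reads in non-shedders A to E. miR-2284j had 3, 0, 1, 0 and 0 reads in super-shedders, against 13, 13, 4, 11 and 1 reads in non-shedders. In each case non-shedders A to D were above every super-shedder and E was not. For miR-2284j the margin was as thin as 4 reads (C) against 3 (F). With no low-count filter the log2 fold changes of miR-2284d and miR-2284j were -2.91 ± 0.77 and -3.30 ± 0.89, and neither passed (adjusted p = 0.253 for both).

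**Figure D2:**
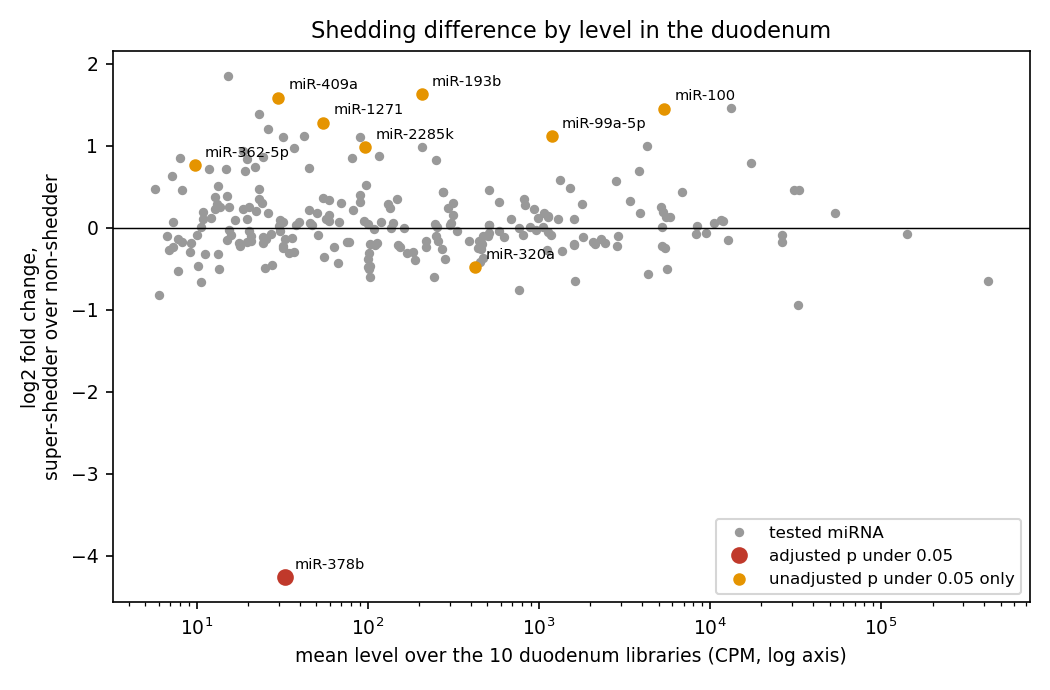
Log2 fold change of super-shedder over non-shedder duodenum (y axis) against the mean level over the 10 libraries (x axis, CPM, log axis) for the 239 tested miRNAs, 1 point each. miR-378b (red) lies at -4.27, far below all others, and the 8 further miRNAs with an unadjusted p under 0.05 (orange) lie between -0.48 and 1.63.

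None of the other differences passed. In all, 9 of the 239 miRNAs had an unadjusted p under 0.05, or 3.77%, of which 7 were higher in super-shedders by fold change and 2 lower. Over all tested miRNAs 127 had a positive fold change, or 53.1%, with a median of 0.03. With scaling to total counts in place of TMM the median moved to 0.22 and 177 of the 239 were positive, so directions of small fold changes rest on the scaling.

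The second smallest p belonged to miR-2285k, of the same ruminant family as miR-2284. Its levels were 159, 94.4, 100.7, 167 and 116 CPM in super-shedders F to J, against 74.4, 53.5, 83.9, 67.9 and 43.4 CPM in non-shedders A to E. Every super-shedder was above every non-shedder, and it was the only tested miRNA whose groups did not overlap, again 0.418% of those tested. The log2 fold change was 0.98 ± 0.27 (adjusted p = 0.453), and 0.87 ± 0.25 without letter I. A second member, miR-2285aa, was nearly even among super-shedders, at 15.6, 15.5, 15.2, 12.2 and 14.4 CPM, against 6.71, 6.80, 16.5, 5.43 and 8.67 CPM in non-shedders. The non-shedder C had the highest level of all and the other non-shedders were below every super-shedder, and the fold change was 0.71 ± 0.33 (adjusted p = 0.838).

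A pair of related miRNAs of stromal and vascular cells, miR-99a-5p and miR-100, followed with wide spread. miR-99a-5p was at 1460.3, 638, 1205, 2424 and 2388 CPM in super-shedders F to J, against 1405, 883, 556, 536 and 370.2 CPM in non-shedders A to E. miR-100 was at 3518, 1566, 5049, 15183 and 14106 CPM in super-shedders, against 6363, 3735, 1729, 1212 and 1384 CPM in non-shedders. Letters I and J were the highest for both and the groups overlapped. Their log2 fold changes were 1.11 ± 0.43 and 1.45 ± 0.65 (adjusted p = 0.838 for both), and without letter I 0.98 ± 0.44 and 1.17 ± 0.67. In the reference gene table miR-99a lies beside let-7c and miR-100 beside let-7a. Those neighbours had fold changes near 0, at 0.11 for let-7c and 0.06 for let-7a-5p, and the second was -0.06 without letter I.

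miR-409a, of the imprinted DLK1-DIO3 region, was at 28.3, 8.0, 23.8, 50.9 and 112 CPM in super-shedders F to J, against 26.2, 13.2, 11, 14.5 and 9.34 CPM in non-shedders A to E. Letters J and I were the highest of the 10, and G was below every non-shedder. The log2 fold change was 1.58 ± 0.60 (adjusted p = 0.838), and 1.64 ± 0.67 without letter I. The locus of its relative miR-409b overlaps that of miR-409a in the reference gene table. Whether reads of the pair can be told apart was not tested.

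miR-1271, which shares its seed with the sensory and secretory-cell miRNA miR-96, was at 100.5, 26.1, 38.4, 55.5 and 169 CPM in super-shedders, against 43.9, 42.2, 35.5, 24.4 and 13.3 CPM in non-shedders. F, I and J were above every non-shedder, while G and H were not. Its log2 fold change was 1.28 ± 0.52 (adjusted p = 0.838), and 1.44 ± 0.55 without letter I. miR-96 itself was at 0.83 ± 0.42, and its cluster partners miR-183 and miR-182 were at 0.52 ± 0.47 and -0.27 ± 0.49. Without letter I these were 1.04 ± 0.41, 0.83 ± 0.33 and 0.03 ± 0.46, and none passed.

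The other miRNAs of the 9 were miR-193b, miR-362-5p and miR-320a. miR-320a, which is made from a short hairpin without cleavage by Drosha, was at 377, 296, 299, 445 and 351 CPM in super-shedders F to J, against 464, 460, 375, 683 and 484 CPM in non-shedders A to E. The non-shedder C lay below super-shedders F and I, every other non-shedder was above all super-shedders, and the log2 fold change was -0.48 ± 0.21 (adjusted p = 0.838), and -0.54 ± 0.19 without letter I. miR-362-5p, at 6.84 to 17.9 CPM in super-shedders and 5.51 to 10.4 CPM in non-shedders, was at 0.76 ± 0.33, and at 0.95 ± 0.32 without letter I. miR-193b owed its place to letter I, since its log2 fold change was 1.63 ± 0.69 with that library and 0.28 ± 0.29 without it.

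**Figure D3:**
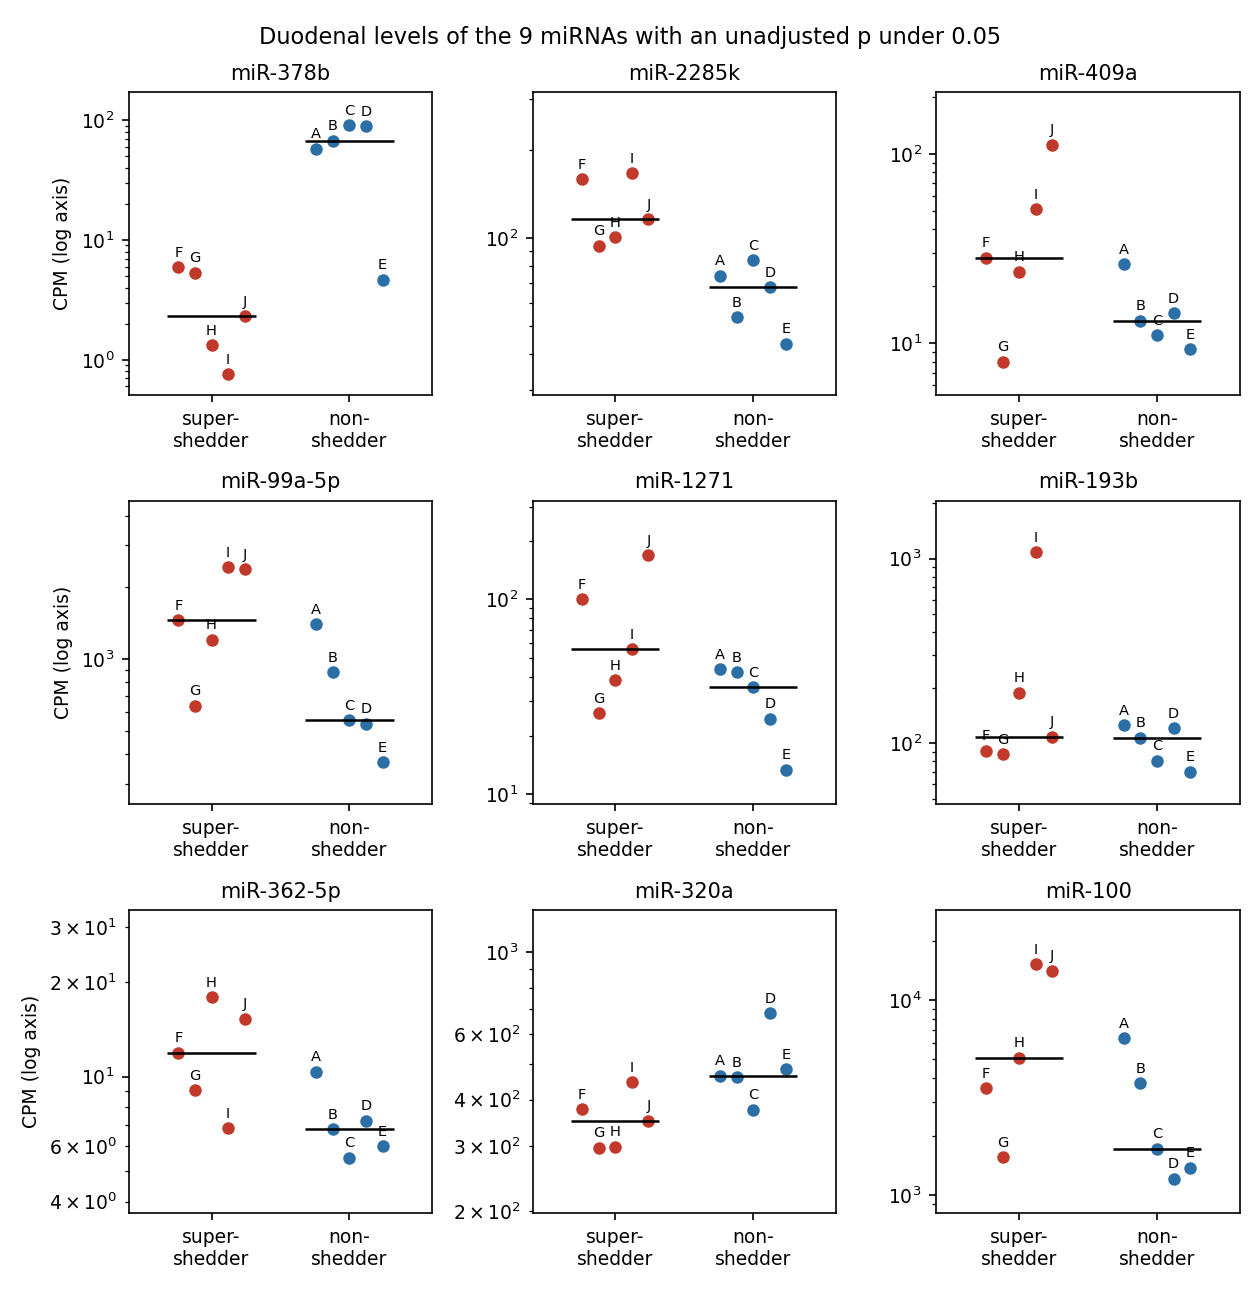
Levels (CPM, log axes of differing range) of the 9 miRNAs with an unadjusted p under 0.05 in each library, with super-shedders left (red) and non-shedders right (blue), the letter of the animal above each point and the group median as a line. For miR-378b the non-shedder E lies among the super-shedders, at 4.67 CPM, and for miR-2285k all super-shedders lie above all non-shedders.

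Letter I alone carried many of the larger fold changes. Without it 17 of the 239 fold changes moved by more than 0.5 on the log2 scale and 9 by more than 1, and the number beyond 1 in either direction was 14 with it and 6 without. miR-30a-5p averaged 19537 ± 27458 CPM in super-shedders and 7127 ± 1634 CPM in non-shedders, with a log2 fold change of 1.45 ± 0.68 (adjusted p = 0.838) that became 0.07 ± 0.24 without letter I. miR-365-3p, which neighbours miR-193b in the reference gene table, was at 1.10 ± 0.59 with that library and 0.07 ± 0.29 without it. miR-152 and miR-2957, whose loci overlap, were at 0.82 ± 0.43 and 0.85 ± 0.39 with it, and at 0.18 ± 0.21 and 0.39 ± 0.25 without it. miR-874 (1.203 ± 0.66) and miR-22-5p (0.94 ± 0.47) were at 0.12 ± 0.39 and 0.30 ± 0.26 without it.

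The other miRNAs among the 20 smallest p-values were miR-2419-5p, miR-33a and miR-6522. miR-33a, which lies within the gene of the sterol regulator SREBF2, was at 16.4, 17.6, 9.27, 4.56 and 3.70 CPM in super-shedders F to J, against 4.88, 4.54, 4.90, 6.33 and 8.0 CPM in non-shedders A to E. F, G and H were above all non-shedders and J below them, and its log2 fold change was 0.85 ± 0.46, with 1.03 ± 0.41 without letter I. miR-2419-5p was at 1.10 ± 0.55 and miR-6522 at -0.83 ± 0.45, and without letter I at 0.91 ± 0.56 and -0.60 ± 0.43. Of the 20, 17 were higher and 3 lower by fold change, and without letter I all 20 had the same sign while 10 had an unadjusted p under 0.05. The 20 were picked by their p in these data and the fits share 9 libraries, so this agreement is no independent check. In the fit without letter I, of 9 libraries, edgeR called 0 of 243 miRNAs, and the unadjusted p was under 0.05 for 12, or 4.94%.

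**Figure D4:**
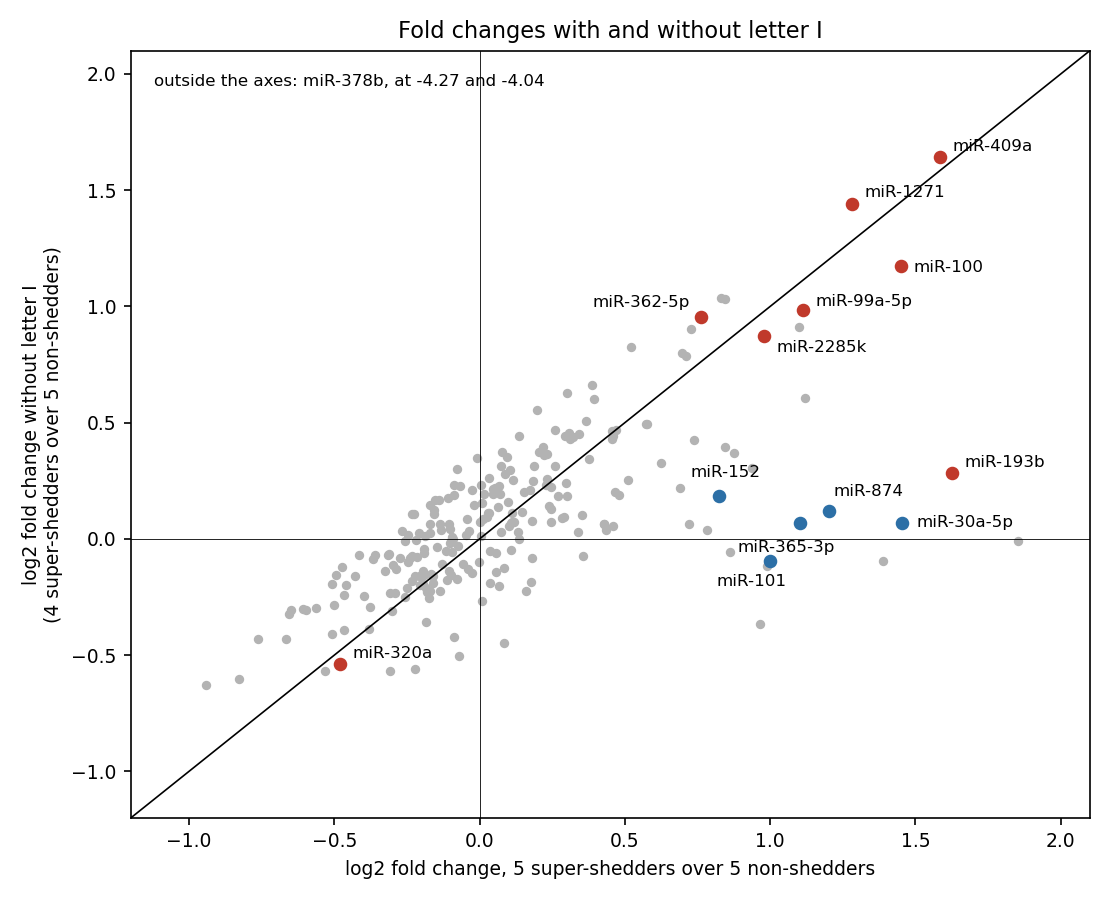
Log2 fold changes of super-shedder over non-shedder duodenum without letter I (y axis) against those with all 10 libraries (x axis), 1 point per tested miRNA, with the line of equal values. The 9 miRNAs with an unadjusted p under 0.05 are red (miR-378b lies outside the axes), and miR-30a-5p, miR-365-3p, miR-874, miR-152 and miR-101 (blue) lie between -0.09 and 0.18 without letter I.

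Among the 10 most abundant miRNAs the groups overlapped. The smooth muscle miRNA miR-143 led in level, at 329098 ± 235027 CPM in super-shedders and 515883 ± 278174 CPM in non-shedders. It ran from 70520.3 to 628635 CPM among super-shedders and from 156049 to 937449 CPM among non-shedders, so the groups overlapped over most of their range. Its log2 fold change was -0.65 ± 0.63, and -0.31 ± 0.55 without letter I. The epithelial miR-192 averaged 137616 ± 72345 CPM in super-shedders and 145237 ± 30428 CPM in non-shedders, and miR-148a 56848 ± 30653 and 50109 ± 21269.8 CPM. Next came miR-26a, miR-215, miR-26c, miR-27b, miR-21-5p, miR-22-3p and miR-30a-5p, and edgeR called none of the 10. miR-30a-5p stands among them through letter I, since its median over the other 9 libraries was 7310 CPM, below that of miR-10b (14551 CPM). miR-26a and miR-26c overlap in the reference gene table and had nearly equal levels, so they may count the same reads. miR-215 was at -0.94 ± 0.70, and at -0.63 ± 0.40 without letter I. The spread of miR-27b was small, at 25608 ± 2346 CPM in super-shedders and 27299.8 ± 4279 CPM in non-shedders, with a fold change of -0.09 ± 0.22.

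Lists of miRNAs that mark cell types were then described by the sign and median of their fold changes. Over all tested miRNAs 53.1% were positive, with a median of 0.03, and 0.06 without letter I. Members of 1 cluster, such as miR-143 and miR-145, and arms of 1 hairpin count separately, so signs within a list are not independent. In the cell type lists edgeR called 0 members. The unadjusted p was under 0.05 for 2, miR-99a-5p and miR-100, both in the list of stroma and endothelium. These 2 are among the 9, or 3.77%, of all 239 tested miRNAs given above, so they add no result about a cell type. Of the 8 epithelial miRNAs 1 was positive, with a median of -0.16 that was -0.03 without letter I and 0.03 with scaling to total counts. All 5 muscle miRNAs were negative, with a median of -0.51, and -0.19 without letter I. The muscle list summed to 70822 to 632539 CPM in super-shedders and 156595 to 941785 CPM in non-shedders, and the lowest value was letter I. The 3 enteroendocrine miRNAs had a median of 0.08, and 0.37 without letter I, where miR-153 had 0 reads. The 4 neural miRNAs were all negative, at a median of -0.27, and 2 of 4 were positive without letter I, at a median of 0.02.

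Of the 5 leukocyte miRNAs 4 were positive, with a median of 0.19, and 0.31 without letter I. miR-142-5p, a miRNA of all blood cells, was at 8634, 8722, 5639, 3341 and 1987 CPM in super-shedders F to J, against 4337, 3558, 6239.7, 4460.0 and 6266 CPM in non-shedders A to E. F and G were the highest and J the lowest of the 10, with a log2 fold change of 0.19 ± 0.38, and 0.31 ± 0.36 without letter I. Of the 7 miRNAs induced in inflammation 3 were positive, at a median of -0.17, which was 0.03 without letter I and 0.00 with scaling to total counts. miR-146a, induced by NF-κB, was at 2498, 1210.0, 1739.9, 1864 and 599 CPM in super-shedders F to J, against 621, 772, 1202, 538 and 2166 CPM in non-shedders A to E. The groups overlapped through J and E, and its fold change was 0.58 ± 0.44, and 0.49 ± 0.45 without letter I. miR-155 was at -0.26 ± 0.44 and miR-21-5p at -0.17 ± 0.30, and without letter I these were -0.01 ± 0.37 and 0.03 ± 0.21.

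Both erythroid miRNAs tested were positive, with miR-451 at 0.88 ± 0.61 and miR-486 at 0.46 ± 0.39, and letter I was the highest library for both. Without it they were at 0.37 ± 0.54 and 0.06 ± 0.30. Of the 11 stromal and endothelial miRNAs 7 were positive, with a median of 0.30, and 0.19 without letter I. Besides miR-99a-5p and miR-100 these included miR-125b (0.57 ± 0.40, and 0.49 ± 0.44 without letter I) and the endothelial miR-126-5p (0.43 ± 0.32, and 0.04 ± 0.17 without letter I). The 4 negative members were miR-199a-3p and miR-199c (-0.21 each), miR-199b (-0.07) and miR-99a-3p (-0.04), the other arm of miR-99a. Without letter I they were at -0.16, -0.16, 0.23 and 0.03. miR-199a-3p and miR-199c had nearly the same mean level and may count the same reads. The list of liver and pancreas miRNAs had no tested member, since miR-122 was abundant in 1 library only and miR-216a, miR-216b and miR-217 had at most 12 reads in any library.

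Among lists by family or locus, the miR-2284/miR-2285 family had 8 of 9 tested members positive, with a median of 0.38, and 7 of 9 and 0.23 without letter I. The tested miR-2285 members ran from 0.38 to 0.98 and the miR-2284 members from -0.32 to 0.23. Without letter I these ranges were -0.06 to 0.87 and -0.14 to 0.23. With reads summed by name, miR-2285 had the smallest p of the 170 families (0.83 ± 0.26) and miR-2284 was at 0.01 ± 0.16, and neither passed. miR-2284x and miR-2284y, with fold changes of 0.03 each, had nearly the same levels in every library and may count the same reads. The DLK1-DIO3 region had 10 of 14 positive, with a median of 0.11, and 8 of 14 and 0.06 without letter I. There miR-409a at 1.58 lay far above its neighbours miR-410 (0.06, and -0.14 without letter I) and miR-369-3p (0.10). The let-7 family had 5 of 10 positive (median -0.04), and 2 of 10 without letter I (-0.12). The miR-17-92 family and its paralogs, which accompany cell proliferation, had 5 of 12 positive, with a median of -0.09, and 6 of 13 and -0.04 without letter I. Both tested HOX-cluster miRNAs were negative (median -0.19), but 1 of 2 was positive without letter I (median 0.00). miR-10b was at 1301 CPM in letter I against 8742 to 18698 CPM elsewhere, and its fold change of -0.15 ± 0.51 was 0.17 ± 0.23 without that library. miR-10a was at -0.22 ± 0.51, and at 0.61 ± 0.30 without letter E. The let-7 and miR-17-92 medians were positive with scaling to total counts, at 0.13 and 0.14.

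The miR-30 family had 5 of 6 positive with a median of 0.26, and 4 of 6 and 0.04 without letter I. The family of miR-15 and miR-16 had 2 of 7 positive (median -0.17), the miR-23/27/24 clusters 2 of 5 (-0.09) and the miR-29 family 3 of 4 (0.09). Without letter I these were 3 of 7 (-0.01), 4 of 5 (0.07) and 4 of 4 (0.22). The first of these medians was 0.00 and the second 0.09 with scaling to total counts. The miR-183 cluster with miR-1271 had 3 of 4 positive (0.68) and all 4 without letter I (0.93). The 4 tested miRNAs of the list of miR-320, miR-484, miR-877 and miR-423 were all negative, with a median of -0.27, and 1 was positive without letter I, at a median of -0.31. The miR-378 family, described above, had a median of -0.59, and -0.30 without letter I.

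**Figure D5:**
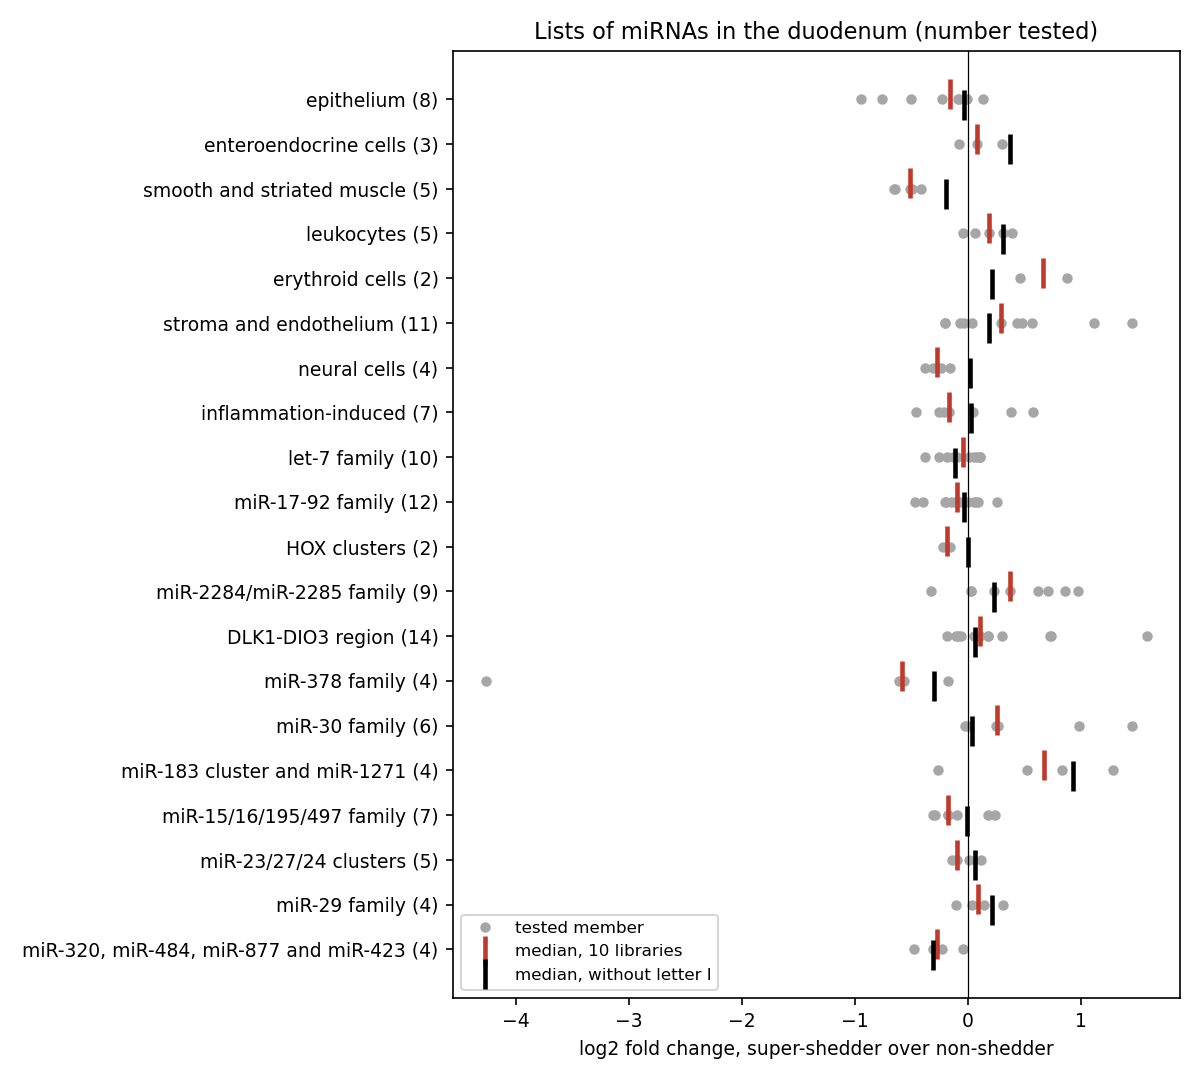
Log2 fold changes of super-shedder over non-shedder duodenum (x axis) for the tested members of each list (grey points), with the median over all 10 libraries (red) and without letter I (black), and the number tested in brackets. The miR-183 cluster with miR-1271 has the highest median, at 0.68, and the lone point at -4.27 is miR-378b.

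Whether the duodenal difference departs from that in the rest of the gut was tested in 1 model of all 60 libraries, as the difference in the duodenum less the mean difference in the other 5 regions. The model had no term for the letter, so its p-values do not account for regions that share an animal. Of 288 miRNAs 1 passed, or 0.347%, and 12 had an unadjusted p under 0.05, or 4.17%. It was miR-122, with a log2 difference of 11.77 ± 2.17 (adjusted p = 4.36e-04), which rests on the 13102 reads of letter I and depends on how near-zero counts are handled. With the letter as a replicate block edgeR called 0 miRNAs, the unadjusted p was under 0.05 for 12, and miR-122 was at 7.65 ± 2.18 (adjusted p = 0.302). Without letter I its reads were too few to be tested, and edgeR called 0 of 291 miRNAs, 2 of which had an unadjusted p under 0.05. On a scale common to all 60 libraries letter I held 9635 CPM of miR-122 in the duodenum, 0 to 7.54 CPM in its other 5 regions, and no other library exceeded 44.0 CPM.

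The next by p were miR-22-3p (1.07 ± 0.32), miR-101 (1.12 ± 0.35), miR-30a-5p (1.42 ± 0.45) and miR-22-5p (1.18 ± 0.40), at adjusted p-values of 0.205, 0.205, 0.205 and 0.302. Without letter I these differences were 0.19, -0.05, 0.15 and 0.54. For miR-378b the duodenal difference less that elsewhere was -0.41 ± 0.88 (adjusted p = 0.997), an error that leaves room for sizeable departures either way.

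The duodenum alone and all 60 libraries in 1 fit did not give the same calls. The larger fit takes its spread from all 12 groups. It treats libraries of 1 letter as independent, so its p-values count 1 animal several times over. There the duodenal contrast called 3 of 288 miRNAs, or 1.04%. These were miR-378b (-4.26 ± 0.86, adjusted p = 0.00107), miR-122 (11.41 ± 1.96, adjusted p = 1.09e-04) and miR-30a-5p (1.55 ± 0.42, adjusted p = 0.0493). The levels of miR-122 and miR-30a-5p behind these calls are those of letter I given above. Set beside the duodenum, fold changes of miR-378b in the other 5 regions with no low-count filter ran from -4.42 to -3.34. Those of miR-2285k ran from 0.63 to 1.11, of miR-1271 from 1.23 to 2.21, and of miR-320a from -0.64 to -0.16. Ranges were wide for miR-409a (0.61 to 2.53), miR-99a-5p (0.47 to 3.47) and miR-100 (0.41 to 3.79). miR-193b, from -0.53 to 1.31 with 2 of 5 positive, and miR-362-5p, from -0.16 to 1.57 with 4 of 5 positive, went both ways. The regions come from the same letters, so these values are not independent of the duodenal ones.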

How the data were processed

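Small RNA of intestinal biopsies had been extracted with the mirVana kit and made into libraries with the TruSeq small RNA kit, per the labels' protocols. The authors deposited raw read counts per mature miRNA as whole numbers. Bowtie and edgeR are named in the submitters' processing notes, and the sources used here give neither their versions nor the genome build, nor say what was done with reads matching more than 1 miRNA.

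Here the 10 duodenum libraries passed through filterByExpr (minimum count 10) and TMM scaling, and were tested two-sided in R 4.3.3 with edgeR 4.0.16 (quasi-likelihood F test), with Benjamini-Hochberg adjustment. DESeq2 1.42.0, limma 3.58.1 and the exact test of edgeR were alternatives. The model of 60 libraries had 12 group means and no term for the letter, except in the alternative with the letter as a replicate block. Standard errors are the fold change over the square root of F. Scripts were checked on simulated data.

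Named miRNAs are those past the threshold, the 20 smallest p-values, the 10 of highest level, fixed markers and list members, calls of other fits, and the 5 smallest p-values against other regions. miR-885 and miR-708 were added for their move without letter I. The members and lists were chosen with earlier results of these data known. Libraries of 1 group differed beyond counting error (in 20 pairs the chi-square was 163 to 3721 times its degrees of freedom). Limits for a count of 0 are 3 counts and reflect counting error alone, as the labels mention no molecular identifiers. A RefSeq gene table of assembly ARS-UCD2.0 matched 600 of 608 names and served for names and neighbours within 10 kb. Letters as animals are inferred from the titles. As a check of this pairing, deviations of each duodenum library from its group mean were correlated with those of the same letter in the other regions, and the mean correlation ran from -0.0228 (H) to 0.292 (I). With other letters it ran from -0.0733 to 0.0154, and for H the value with other letters was higher (0.00869).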

Additional observations from a re-analysis of the deposited data

Results flagged for a closer look

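In the super-shedder duodenum 10 of the examined miRNAs had a CPM value in letter I far above the other 4 animals. On the log2 scale, over all 239 tested miRNAs, letter I stood apart high for 10 and low for 14, so it departed in both directions. The 10 by CPM were miR-122 (9954 CPM, next highest 11.9), miR-30a-5p (68544, next 10275), miR-22-3p (58241, next 14787), miR-101 (17974, next 3351), miR-193b (1081, next 188) and miR-152 (809, next 238). The others were miR-365-3p (387, next 76.8), miR-874 (115, next 33.1), miR-2285t (91.2, next 21.2) and miR-22-5p (61.5, next 17.6). Within the non-shedders letter C was high in miR-155 (943 CPM, next 423), miR-150 (738, next 295) and miR-2285t (31.8, next 15.4), and low in miR-410 (32.4, next 47.0). Letter E was high in miR-10a (8484 CPM, next 1993) and miR-24-3p (1324, next 916), and letter B in miR-29c (379 CPM, next 293). These are 17 of 200 groups of 5 examined. A rate of about 1 in 20 would hold for independent, normally spread values. The flags were made on CPM without a log, and the miRNAs were partly picked by p, so that rate is no fitting baseline here.

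The shedding difference of miR-122 in the duodenum departed from that in the other 5 regions by 11.77 on the log2 scale (edgeR, adjusted p = 4.36e-04), a value that rests on the library of letter I. It did not pass with the letter as a replicate block (7.65, adjusted p = 0.302) or without C (adjusted p = 0.106), and could not be tested without I.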

How the results depend on the processing

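The duodenum gave 1 call in the test as reported and 1 under RLE scaling, total-count scaling, a robust fit, DESeq2, the exact test, no filter, and a filter of CPM above 5 in 5 or more libraries. Unadjusted p-values under 0.05 numbered 9 as reported, 18 with total-count scaling and 19 with no filter. It gave 0 with limma-voom (6 at an unadjusted p under 0.05), 0 with counts summed over name families (4 at an unadjusted p under 0.05, an alternative chosen after seeing the data) and 3 with all 60 libraries in 1 fit. Leaving out 1 letter gave 0 to 1 calls, with 1 only without E, and 4 to 14 unadjusted p-values under 0.05. Against the other regions the count was 1, with 0 under the replicate block and 0 to 1 with 1 letter left out, being 0 without C (adjusted p = 0.106 for miR-122) and without I. The difference in mean total counts, -302874, ran from -528180 to 92123 with 1 letter left out, and that in detected miRNAs, -4.0, from -7.6 to 2.15; both were positive without B (0.35 for detected miRNAs), and the second also without I. For miR-101 against the other regions, with 1 letter left out, the values ran from -0.046 (without I) to 1.32. Of 440 values of 25 single results under alternatives 426 kept direction and side of the threshold. The planned test on seed families was not run. Levels resting on 10 reads or fewer, as for miR-378b in super-shedders, limit what the depth can resolve.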
